A study of Mus musculus with 6 samples.

Results

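The B cell receptor complex and its proximal signalling genes were followed through 6 libraries of mouse spleen RNA. The set was a fixed list of 9 genes (Cd79a, Cd79b, Lyn, Blk, Syk, Btk, Blnk, Bank1 and Cd22), matched by symbol to the Entrez gene IDs of a deposited count table. All 9 were among the 40808 gene IDs of the table, and all 9 passed the low-count filter that left 14110 genes for testing. RNA came, per the labels, from leukaemia cells of the spleen of mice given a bone marrow transplant. One group of 3 libraries (replicates 4, 5 and 6) is labelled as having no treatment and the other group of 3 (replicates 10, 11 and 12) as having Dox. The labels do not spell out Dox, and dose, duration, the construct it acts on, strain, age and sex are not given in the sources used here. They also do not say whether each library is 1 mouse, so the spread between libraries may be partly technical.

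On a B cell, antigen binds a membrane immunoglobulin whose signal is carried by the CD79A and CD79B chains, each with a tyrosine activation motif in its tail. SRC-family kinases (LYN, BLK) phosphorylate these motifs, SYK docks on them, and the adaptor BLNK then brings BTK to its substrates, among them the phospholipase encoded by Plcg2. CD22 is a sialic-acid-binding receptor that recruits phosphatases and damps the signal, and BANK1 is a scaffold that links the receptor to LYN and calcium release. T cells use a parallel set built from the CD3 chains, LCK, ZAP70 and the adaptor encoded by Lcp2. LYN, SYK and BTK are also used by myeloid cells and platelets, so these genes are less restricted to B cells than Cd79a, Cd79b and Cd22.

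The libraries held 5541486 to 8725767 counts each, and 3 counts, taken as the limit of what a count of 0 allows, corresponded to 0.31 to 0.61 normalized CPM (counts scaled by library size and composition). The groups also differed in sex-linked expression: 4 Y-linked genes together had 545 to 801 counts in the libraries without Dox and 0 in each library with Dox, and Xist had 193 to 324 against 3347 to 5669 counts. Dox and this difference cannot be told apart here. Btk is X-linked, and the other 8 genes are autosomal. Within groups, the common biological coefficient of variation was 0.19 without Dox and 0.52 with Dox, so a mean with Dox was less precise at the same count.

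All 9 genes were higher with Dox, and for none did the groups overlap. Each passed an adjusted p-value under 0.05 in edgeR's quasi-likelihood test (Benjamini-Hochberg over all tested genes), where the background was 45.6% of the 14110 tested genes in either direction, 23.6% in the higher and 22.1% in the lower direction. Groups that did not overlap, with Dox higher, were found in 30.0% of tested genes, and with Dox lower in 29.6%. The median log2 fold change of the 9 genes was 4.18, against 0.07 for all tested genes, and ran from 2.74 for Lyn to 6.19 for Blk. In the ordering of all tested genes by log2 fold change these ends lay at percentiles 92.6 and 99.3. Blk (5, 0 and 0 counts without Dox) and Cd22 (16, 2 and 11) passed the low-count filter only through the libraries with Dox. For genes this low without Dox, the filter favours a call of higher. The 9 genes together took 68.3, 73.0 and 69.8 normalized CPM without Dox and 973, 899 and 1135 with Dox. In RNA from many cells together, more cells of a type and more RNA per cell cannot be told apart.

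Promoter windows were read because the 9 genes moved together. RefSeq windows on build GRCm38.p6 were at hand for 6 of the 9 genes (Cd79a, Blnk, Btk, Syk, Cd22 and Bank1), with 2 starts for Syk, and the 250 bases before each start were searched on both strands for 4 short motifs of factors known from B cells. The octamer ATTTGCAT, bound by OCT factors, was in 1 of the 7 windows, that of Blnk, and in 1.6% of 32851 windows of all genes. The E box CAGGTG was in 6 of 7 windows and in 17.2% of all windows. These windows belong to Bank1, Blnk, Cd22, Cd79a and Syk, with both starts of Syk counted. The ETS and PU.1 core GGAAGT was in 3 of 7 and 19.7%, and the EBF1 motif CCCNNGGG in 2 of 7 and 11.8%. The searched motifs do not overlap one another in the windows shown. A match is a description of the letters, not a binding site. The windows of Cd79a (chr7:24897247-24897496, plus strand) and Blnk (chr19:40994222-40994471, minus strand) are shown 5′ to 3′ as examples of a receptor chain and an adaptor, with capitals marking matches in either orientation (CACCTG is the E box read on the other strand).
Cd79a: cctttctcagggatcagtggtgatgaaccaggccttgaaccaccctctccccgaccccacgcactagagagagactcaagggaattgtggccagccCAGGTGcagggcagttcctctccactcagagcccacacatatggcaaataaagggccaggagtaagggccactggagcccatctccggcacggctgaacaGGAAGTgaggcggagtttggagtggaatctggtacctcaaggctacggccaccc
Blnk: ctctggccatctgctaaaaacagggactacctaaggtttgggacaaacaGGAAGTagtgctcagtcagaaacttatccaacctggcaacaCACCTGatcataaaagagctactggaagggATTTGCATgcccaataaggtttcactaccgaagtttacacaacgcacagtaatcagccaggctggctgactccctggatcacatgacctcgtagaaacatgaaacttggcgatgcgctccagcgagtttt
The E box lies 154 bases before the start in Cd79a and 160 in Blnk, and the ETS core 54 and 201 bases before it. The Btk window held none of the 4 motifs, which says only that these letters are absent from it.

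The receptor's signalling chains had low counts without Dox. Cd79a (Entrez gene 12518, GRCm38 chr7:24897497-24901858) had 35, 14 and 24 counts, or 5.22, 2.84 and 4.07 normalized CPM, without Dox, and 68.2, 64.6 and 90.9 normalized CPM with Dox. Its log2 fold change was 4.18 ± 0.30 (SE), an 18.4-fold difference of means (adjusted p = 5.50e-06, edgeR). Each library with Dox was far above each library without it, and replicate 12 was the highest. Cd79b (Entrez gene 15985, chr11:106311341-106314562) had 2.09, 3.24 and 5.42 normalized CPM without Dox and 108, 108 and 141 with Dox. Its log2 fold change was 5.05 ± 0.33 (SE), a 33.1-fold difference of means (adjusted p = 3.64e-06, edgeR). Replicate 12 again stood highest, and replicates 10 and 11 were level.

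Among the kinases, the 2 SRC-family members differed most from each other. Lyn (Entrez gene 17096, chr4:3678068-3791612) was the most abundant of the 9 genes in both groups, with 31.6, 40.5 and 30.7 normalized CPM without Dox and 235, 185 and 268 with Dox. It had the smallest rise of the set, a log2 fold change of 2.74 ± 0.21 (SE) or 6.69-fold (adjusted p = 7.70e-06, edgeR). Blk (Entrez gene 12143, chr14:63372837-63417187), a SRC-family kinase largely restricted to B lineage cells, was counted 5, 0 and 0 times in the libraries without Dox, against 115, 160 and 248 times in those with it. These counts equal 0.75, 0 and 0 normalized CPM without Dox, and 15.7, 16.5 and 32.7 with Dox. Its log2 fold change was 6.19 ± 0.84 (SE; adjusted p = 0.00025, edgeR). Because all 5 counts of the group without Dox came from replicate 4, the size of the rise is loosely set: counts pooled by group gave a 74.4-fold difference with a 95% exact interval of 31.7 to 230.1 that covers counting error only. Without replicate 4 the fitted value became 10.24, since the rest of that group is at 0.

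Syk and Btk, the kinases that act after the SRC family, rose by different amounts. Syk (Entrez gene 20963, chr13:52582610-52648792) had 10.3, 12.2 and 11.4 normalized CPM without Dox and 179, 178 and 122 with Dox, a log2 fold change of 3.82 ± 0.23 (SE; adjusted p = 2.58e-06, edgeR). It was the only one of the 9 genes that was lowest in replicate 12. Btk (Entrez gene 12229, chrX:134542334-134583628) had 6.12, 5.47 and 3.56 normalized CPM without Dox and 47.0, 27.4 and 48.1 with Dox, a log2 fold change of 3.01 ± 0.35 (SE; adjusted p = 9.93e-05, edgeR). Replicate 11 was low against the other libraries with Dox, but still above every library without it.

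Both adaptors were higher with Dox, with different spreads. Blnk (Entrez gene 17060, chr19:40928927-40994221) had 4.92, 3.45 and 5.59 normalized CPM without Dox and 66.3, 67.2 and 68.9 with Dox (log2 fold change 3.84 ± 0.26 (SE), adjusted p = 4.21e-06, edgeR). Blnk had the lowest coefficient of variation of the set across the libraries with Dox, at 1.99%. Bank1 (Entrez gene 242248, chr3:136053363-136326141) had 4.92, 4.86 and 7.29 normalized CPM without Dox and 142, 161 and 268 with Dox (log2 fold change 5.06 ± 0.32 (SE), adjusted p = 3.23e-06, edgeR). Its coefficient of variation with Dox was 35.6%, with replicate 12 the highest in the group by a factor of 1.88 over the lowest.

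The inhibitory receptor gene rose with the activating ones. Cd22 (Entrez gene 12483, chr7:30865404-30880342) had 16, 2 and 11 counts, or 2.39, 0.41 and 1.86 normalized CPM, without Dox and 112, 91.0 and 94.5 normalized CPM with Dox. Its log2 fold change was 5.92 ± 0.40 (SE), a 63.9-fold difference of means (adjusted p = 4.10e-06, edgeR). Of the 9 genes, 7 were highest in replicate 12 within the Dox group, and Syk and Cd22 were highest in replicate 10. In the GENCODE annotation, 479 exonic bases of Cd22 and 248 of Lyn lie opposite an RNA gene on the other strand, annotated as antisense at Cd22 and as a lincRNA at Lyn. The sources used here do not state whether counting used strand, and without it such reads cannot be told apart.

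**Figure D1:**
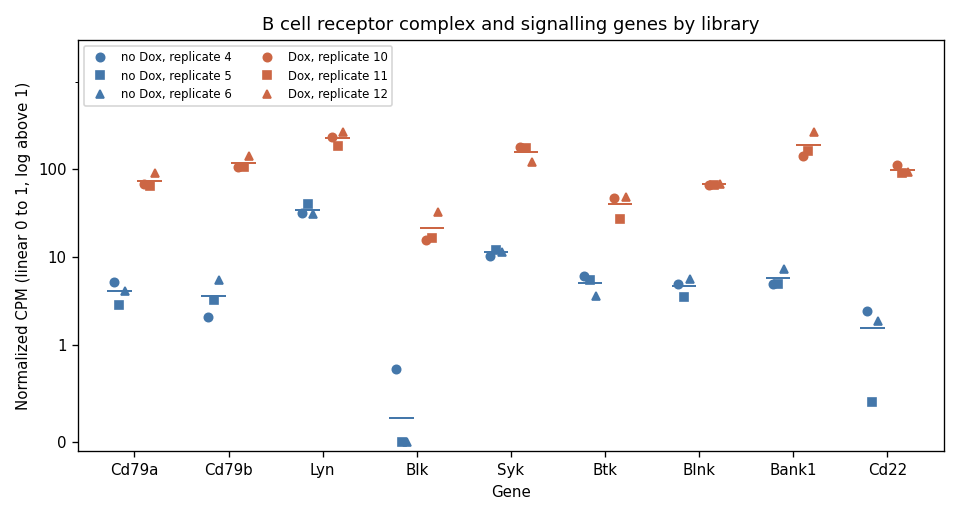
Normalized CPM of the 9 genes (x axis) in each library; the y axis is linear from 0 to 1 and logarithmic above 1, symbols mark replicates, colours mark the groups, and short lines mark group means. For each gene the 3 libraries with Dox lie above the 3 without, from Lyn, at 30.7 to 40.5 without Dox, down to Blk, with 0 counts in replicates 5 and 6.

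The order of the levels was examined within each group. The library kit primes at the poly(A) tail and yields about 1 fragment per transcript whatever its length, so normalized CPM was compared between genes without a length correction. Without Dox, Lyn supplied 48.7% of the summed level of the 9 genes and Syk 16.01%, and both stood apart from the next gene in the order. The ranges of the genes below them, in the order Bank1, Btk, Blnk, Cd79a, Cd79b, Cd22 and Blk, overlapped from each to the next. With Dox, Lyn supplied 22.9% and Bank1 19.0%, with overlapping ranges, followed by Syk (15.9%), Cd79b (11.8%), Cd22 (9.89%), Cd79a (7.44%), Blnk (6.73%), Btk (4.07%) and Blk (2.16%). Neighbours in this order overlapped except Cd22 and Cd79a, and Blnk and Btk. Steps between ranges that do not overlap are thus few in both groups. Counted library by library, Cd22 also stood above Blk in all 3 libraries without Dox, and Btk above Blk in all 3 with Dox.

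Ratios of counts within a library, which need no scaling between libraries, were used to ask whether the genes kept their proportions (13 ratios, 0.5 added to each count, exact two-sided permutation test over 3 against 3 libraries, for which 0.1 is the smallest possible p). The log2 ratio of Lyn to Cd79a stood at 2.58, 3.79 and 2.89 in the group without Dox, against 1.78, 1.52 and 1.56 with it, a difference of -1.47 (exact permutation p = 0.1, 0.118 after Benjamini-Hochberg adjustment over the 13 ratios). Btk to Cd79a was also lower with Dox, by a log2 difference of -1.22, with groups that did not overlap and the same p. Both ratios were thus lower in every library with Dox than in any library without it.

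Ratios to Cd79a that were higher with Dox were those of Cd22 (log2 difference 2.0), Blk (2.53), Cd79b (0.91) and Bank1 (0.81), each with groups that did not overlap and an exact permutation p of 0.1. Without replicate 4 of the group without Dox the difference was 0.38 for Cd79b and 0.52 for Bank1, so the size of both rests in part on that library. The size for Blk depends on the added count, since Blk had 0 counts in replicates 5 and 6, and was 1.19 with 2 added in place of 0.5. For the paired chains Cd79b and Cd79a the log2 ratio stood at -1.29, 0.19 and 0.41 in the group without Dox, against 0.66, 0.73 and 0.63 with it. The values with Dox were tight (SD 0.053) and those without were not (SD 0.92), where each chain had only 14 to 35 counts. The ratios of Syk (log2 difference -0.41, exact permutation p = 0.4) and Blnk (-0.34, exact permutation p = 0.3) to Cd79a overlapped between the groups.

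Syk, Blnk, Lyn and Blk were also set against relatives that serve the T cell receptor. The ratio of Syk to Zap70 counts stood at 0.22, 0.28 and 0.25 in the group without Dox, against 21.7, 18.3 and 19.97 with it, a log2 difference of 6.34. Blnk to Lcp2 went from 0.080, 0.058 and 0.088 to 1.46, 1.09 and 1.29, a log2 difference of 4.10. In both pairs the listed gene was the lesser one without Dox and the greater one with Dox in every library. Lyn to Fyn went from 0.45, 0.62 and 0.33 to 3.17, 2.68 and 4.02. Blk stayed below Lck in every library, at a ratio of 0.61, 0.71 and 0.92 with Dox and at most 0.0039 without. The groups did not overlap in any of these 4 ratios (exact permutation p = 0.1 each, 0.118 after adjustment over the 13).

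**Figure D2:**
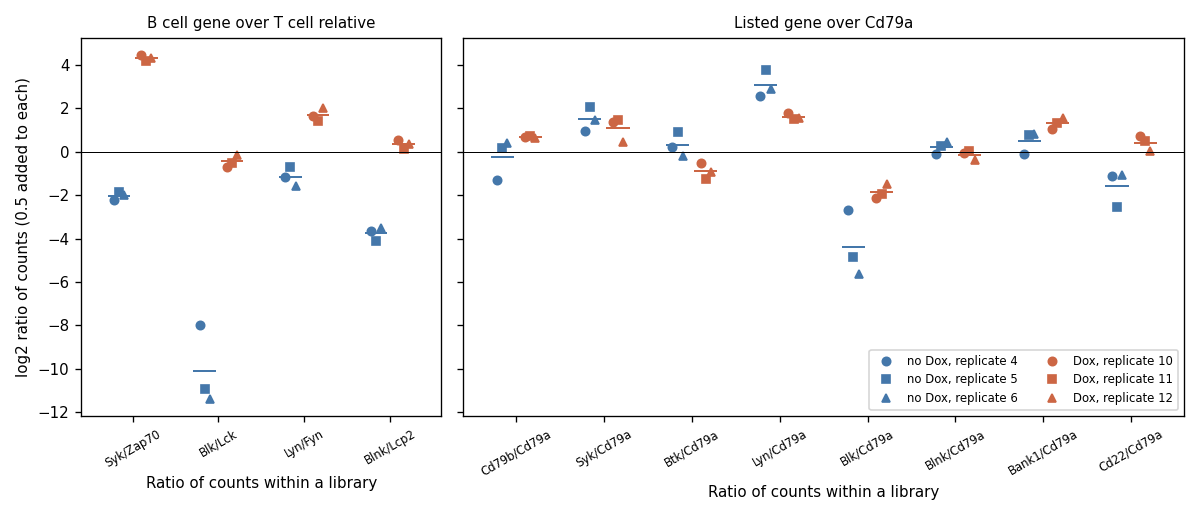
Log2 ratio of counts within each library (y axis, 0.5 added to each count). The left panel holds 4 pairs of a listed gene and a relative that serves the T cell receptor. The right panel holds 8 listed genes over Cd79a. Symbols mark replicates, colours the groups, and lines group means. The left-hand ratios are higher in every library with Dox, whereas on the right Lyn and Btk fall relative to Cd79a and Cd22 and Blk climb.

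The rest of the pathway was read from a list of 37 genes, all of which were tested: 23 were higher and 5 lower with Dox, and 9 did not pass, beside 23.6% higher and 22.1% lower among all tested genes. The median log2 fold change was 1.24, against 4.18 for the 9 receptor genes and 0.07 for all tested genes. Cr2, the complement receptor of the coreceptor complex, had 8, 6 and 0 counts without Dox and 201, 167 and 148 normalized CPM with Dox (log2 fold change 7.72 ± 0.49 (SE), adjusted p = 3.09e-06, edgeR). Cd81, the tetraspanin of that complex, had 25 counts or fewer in each library without Dox and 12, 0 and 27 with Dox, and the difference did not pass (log2 fold change -0.40 ± 1.28 (SE), adjusted p = 0.821, edgeR); its sign turned without replicate 6 of the group without Dox (0.33) and without replicate 11 of the group with Dox (0.17).

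Of 20 downstream genes, 13 were higher and 2 lower, beside 23.6% higher and 22.1% lower among all tested genes. Their median log2 fold change was 0.99. Lat2, a membrane adaptor of B and myeloid cells, went from 2.41 ± 2.1 to 31.8 ± 8.0 normalized CPM (SD, n = 3 each; log2 fold change 3.67, edgeR adjusted p = 0.00044). Rasgrp3, an activator of RAS, went from 4.06 ± 0.84 to 50.1 ± 22 normalized CPM (log2 fold change 3.61). Plcg2, the phospholipase that BTK activates, went from 2.67 ± 0.71 to 30.2 ± 2.3 (log2 fold change 3.48). Pik3ap1, the other adaptor of the BANK1 family, had a log2 fold change of 2.80. Both genes that were lower are expressed across lymphocytes: the phosphatase gene Ptprc had a log2 fold change of -0.60 and the GTPase gene Rac2 -0.49, with adjusted p-values of 0.0089 and 0.023 (edgeR). With library size only neither passed, and Rac2 also missed the threshold with upper quartile factors, with at least 10 counts in every library and without replicate 4 or 5.

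Among 14 inhibitory genes 8 were higher and 3 lower, beside 23.6% higher and 22.1% lower among all tested genes. The count of lower genes is thus near the background. The median log2 fold change of the 14 was 1.64. Siglecg, a close relative of Cd22, was counted 2, 6 and 1 times in the group without Dox and 183, 167 and 261 times in the other (log2 fold change 5.55 ± 0.62 (SE), adjusted p = 7.68e-05, edgeR). Dok3, an adaptor that restrains BTK and PLCG2, went from 1.74 ± 0.28 to 32.5 ± 1.9 normalized CPM (SD, n = 3 each; log2 fold change 4.20, edgeR adjusted p = 9.30e-06). Cd72 had 0 counts in each library without Dox and 14, 42 and 30 with Dox, at least 6.51-fold higher against a floor of 3 counts per library. Ceacam1 and Pirb, which myeloid cells also express, rose by 2.82 and 2.78 on the log2 scale. The 3 that were lower were the ubiquitin ligase gene Cbl (log2 fold change -0.76, edgeR adjusted p = 0.0019), the kinase gene Csk (-0.73, adjusted p = 0.0067) and the phosphatase gene Ptpn22 (-0.68, adjusted p = 0.046). With library size only, Cbl alone of these kept its call, and Ptpn22 missed the threshold with upper quartile factors, with at least 10 counts in every library and without any 1 of replicates 4, 5, 6 or 11.

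**Figure D3:**
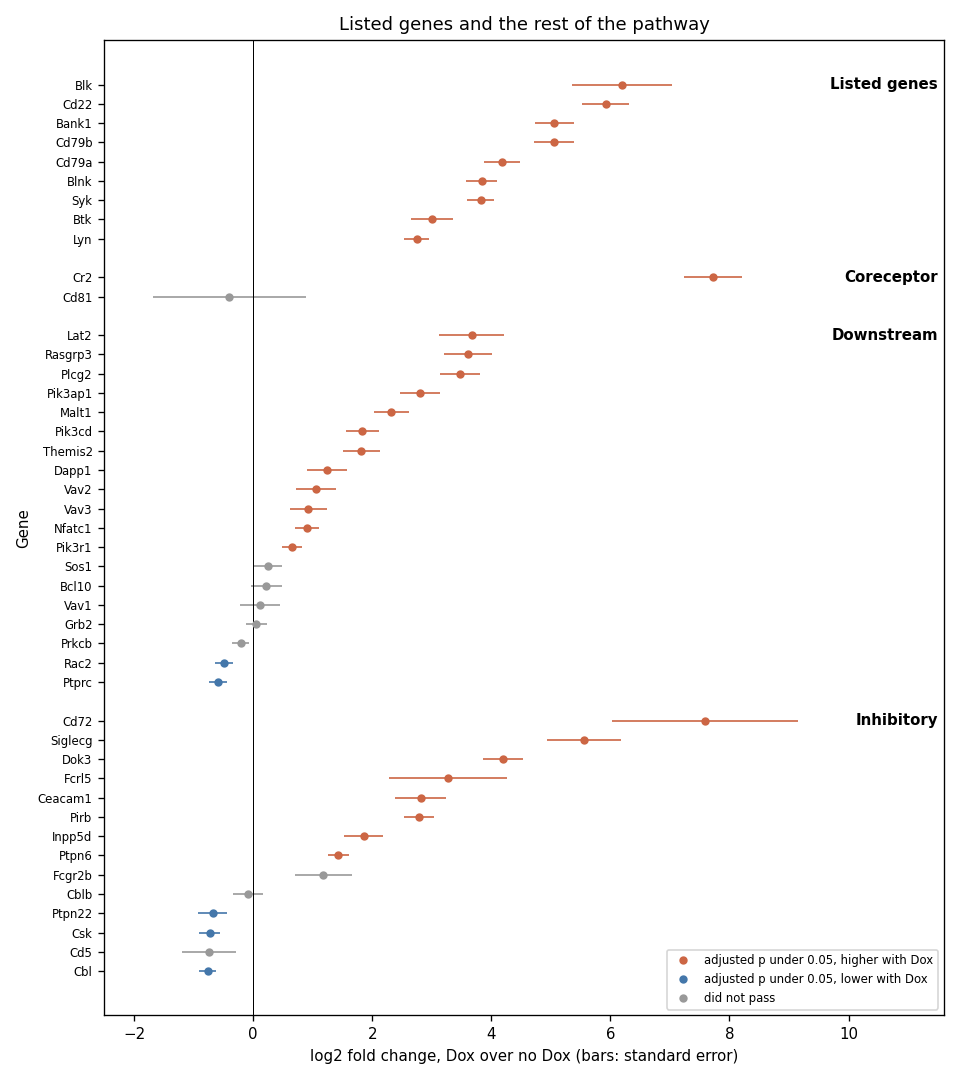
Log2 fold change with Dox over no Dox (x axis) with its standard error for the 9 listed genes and for other genes of the pathway (y axis) in 3 groups; colour marks the edgeR call. All 9 listed genes lie between 2.74 and 6.19, whereas the downstream group reaches from -0.60 to 3.67; the fitted value of Cd72, at 0 in every library without Dox, is not a bound.

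Relatives of the 9 genes that serve other cells were read from a list of 24, of which 20 were tested, 5 higher and 7 lower with Dox, where 23.6% and 22.1% of all tested genes were called higher and lower. The count of higher relatives is thus near the background. The T cell counterparts were lower: Lck went from 212 ± 13 to 28.3 ± 6.6 normalized CPM (SD, n = 3 each; log2 fold change -2.91, edgeR adjusted p = 5.50e-06), and Zap70 went from 45.8 ± 1.9 to 7.97 ± 1.8 (log2 fold change -2.52, adjusted p = 5.70e-05). The CD3 chains, which carry the same kind of activation motif as Cd79a and Cd79b, were lower too, with log2 fold changes of -4.87 (Cd3d), -3.39 (Cd3e), -3.89 (Cd3g) and -2.80 (Cd247). Fyn (-0.13, adjusted p = 0.614), Lcp2 (-0.22, adjusted p = 0.362), Txk (-0.16, adjusted p = 0.852) and Yes1 (-0.04, adjusted p = 0.983) did not pass, and the sign of each turned to positive with library size only.

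Relatives used by myeloid cells gave mixed values. Fgr and Tec rose by 1.2 and 2.30 on the log2 scale, and the call for Fgr was lost without replicate 5 of the group without Dox (adjusted p = 0.061). Src, with 1 to 7 counts per library without Dox, had a log2 fold change of 2.84, a call lost without any 1 of replicates 4, 5, 6, 10 or 11, with no low-count filter and with limma-voom. Fcer1g and Tyrobp, the activation-motif chains of myeloid and NK cell receptors, did not pass, with log2 fold changes of -0.55 (adjusted p = 0.176, edgeR) and -0.25 (adjusted p = 0.477); the latter was 0.06 with library size only. Of the sialic-acid-binding relatives of Cd22, Siglech was counted 0, 7 and 0 times in the group without Dox and 164, 247 and 246 times in the other (log2 fold change 5.95 ± 0.86 (SE), adjusted p = 0.00037, edgeR). Its fitted value was 10.61 without replicate 5, which held all 7 counts of its group. Siglece and Cd33 did not pass, although Siglece passed without replicate 10. Cd33 (log2 fold change 3.23, adjusted p = 0.067, edgeR) passed in 6 of its 14 alternatives: without replicate 4 or 12, with library size only, with no low-count filter, with DESeq2 and with limma-voom with group variances. Its fitted value was 8.63 without replicate 4, which held all 14 counts of its group. Bmx, Clnk, Siglec1 and Siglecf did not pass the low-count filter. Of these, Bmx had 0 counts in each library without Dox and 5, 41 and 95 with Dox.

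Immunoglobulin constant region genes, which encode the constant parts of the chains of both the receptor and secreted antibody, did not move as one. Counts per gene do not separate the membrane from the secreted transcripts. Ighm, the constant region of IgM, had 121, 106 and 126 normalized CPM without Dox and 379, 512 and 474 with Dox (log2 fold change 1.95 ± 0.17 (SE), adjusted p = 1.85e-05, edgeR). Ighd, the constant region of IgD carried by mature B cells, was counted 2, 1 and 0 times in the group without Dox and 146, 149 and 294 times in the other, at least 47.3-fold higher against the floor. The kappa light chain gene Igkc was lower, at 237, 197 and 231 normalized CPM without Dox and 29.5, 55.6 and 50.3 with Dox (log2 fold change -2.29 ± 0.24 (SE), adjusted p = 5.44e-05, edgeR). Of the lambda constant regions, Iglc3 rose by 2.20 on the log2 scale, Iglc2 did not pass (log2 fold change 0.996 ± 0.49 (SE), adjusted p = 0.125) in this fit, although it passed without replicate 12 (adjusted p = 0.00032) and with no low-count filter (adjusted p = 0.0033), and Iglc1 had -0.54 (adjusted p = 0.035), a call lost in 7 of the alternatives. Lambda genes are similar in sequence, so their counts depend on how shared reads were assigned.

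Marker lists of cell types did not all move with the 9 genes. Among all tested genes 23.6% were called higher and 22.1% lower. The 10 B cell markers were all higher (median log2 fold change 5.93, or 5.64 with Cxcr5 at its lower bound), and their summed level was 49.7 to 64.6 normalized CPM without Dox and 1942 to 2314 with Dox. Ms4a1 (CD20) went from 4.68 ± 0.62 to 588 ± 19 normalized CPM (SD, n = 3 each), and the B lineage transcription factor genes Pax5 and Ebf1 from 14.9 ± 1.9 to 504 ± 80 and from 5.33 ± 2.0 to 393 ± 64. The B progenitor markers Vpreb2 and Igll1 had 0 counts in each of the 6 libraries, and Vpreb1 had 0 to 9. The 14 T cell markers were all lower, with sums of 3033 to 3324 normalized CPM without Dox and 207 to 226 with Dox; the lineage of the leukaemia is not given in the labels, and T cell markers were the most abundant of the marker lists without Dox.

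Of 12 myeloid markers 7 were higher and 1 lower, beside 23.6% higher and 22.1% lower among all tested genes. Their sums were 294 to 356 normalized CPM without Dox and 2145 to 2172 with Dox. The largest rises in the list were those of 4 genes that granulocytes or their precursors express: S100a9 had a log2 fold change of 5.47, Mpo 6.94 and Itgam 4.16, and Ly6g, at 0 counts in each library without Dox, was at least 87.8-fold higher. S100a9 and S100a8 supplied 1184 and 365 normalized CPM of the mean sum with Dox. The macrophage gene Adgre1 was the 1 called lower (log2 fold change -1.68, adjusted p = 0.0079, edgeR), a call lost without replicate 4. Csf1r (log2 fold change 0.75), C1qa (0.72), Cd68 (0.03) and Fcgr1 (-1.90) did not pass. The 3 megakaryocyte markers were all higher, with sums of 31.8 to 39.3 and 150 to 216 normalized CPM. Haemoglobin genes took 8.61% to 9.04% of counts without Dox and 14.1% to 15.9% with Dox. The 2 plasmacytoid dendritic cell markers moved in opposite directions, Siglech, described above, upward and Ccr9 downward (log2 fold change -2.32, adjusted p = 0.0013, edgeR), with sums of 49.8 to 65.1 and 29.8 to 53.1. The 2 NK cell markers summed to 2.37 to 4.05 and 1.65 to 7.62. The mast cell and basophil markers summed to 4.46 to 5.59 and 10.9 to 32.3, but went opposite ways. Mcpt8 rose by 4.03 on the log2 scale. Cpa3 had 27, 20 and 22 counts without Dox and 3, 0 and 12 with Dox, and did not pass (log2 fold change -2.56, adjusted p = 0.106, edgeR). The part of these cell types in the levels of the 9 genes was not tested.

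**Figure D4:**
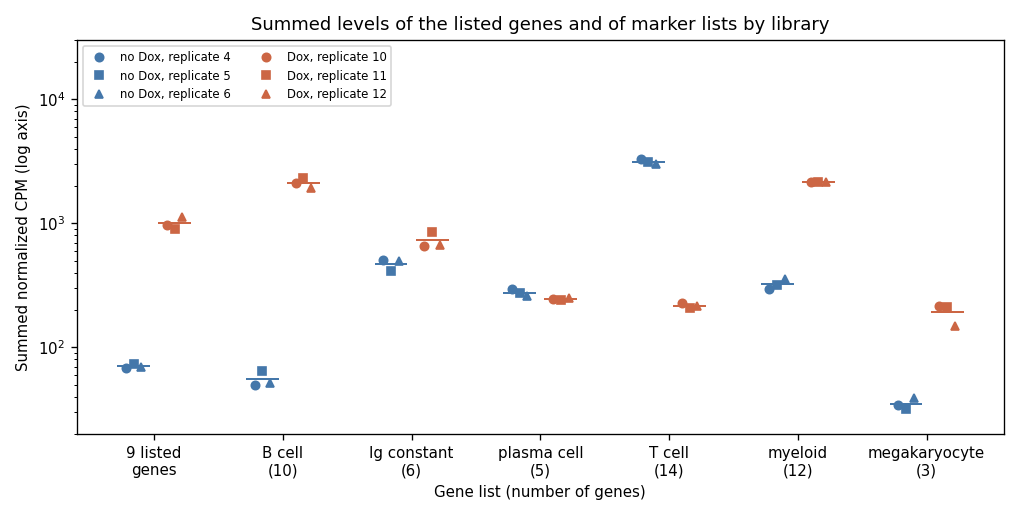
Summed normalized CPM (y axis, logarithmic) of the 9 listed genes, the 6 immunoglobulin constant region genes and 5 marker lists (x axis, number of genes in brackets) in each library; symbols mark replicates, colours the groups, and lines group means. The sum of the 9 genes rises from about 70 to 899 or more, beside rises in the B cell, myeloid and megakaryocyte lists and a fall of the T cell list from 3033 or more to 226 or less.

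Genes with the profile most like that of the receptor's signalling chains were looked up as a description. Log2 normalized CPM, with a prior count of 2 added before the log, was centred over the 6 libraries, and the distance was the root mean square difference from the mean profile of Cd79a and Cd79b, over 14110 genes whose median distance was 2.36. The 5 nearest genes outside the set were Ms4a4c (0.16), Cybb (0.16), Clu (0.17), Trim30d (0.21) and Gm10389 (0.21). Gm10389 was at 0, 0 and 0.17 normalized CPM without Dox and 5.72, 8.65 and 11.2 with Dox, with a fitted log2 fold change of 6.83, so its distance depends on the prior count. Cybb, the catalytic chain of the phagocyte oxidase, had 20.4, 17.2 and 20.2 normalized CPM without Dox and 473, 424 and 530 with Dox. Ms4a4c had 0.81 to 1.70 normalized CPM without Dox and 30.6 to 41.4 with Dox. Within the set Bank1 was nearest (0.25), followed by Blnk (0.42) and Syk (0.55), and Lyn was farthest (0.97). With 2 groups of 3 libraries, such a distance is set mainly by the size of the difference between groups.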

How the data were processed

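Spleen RNA in 6 libraries was measured at mRNA 3′ ends (QuantSeq, forward version), per the labels' protocols. The authors deposited 1 table of unnormalized counts, by Entrez gene ID and library. The submitters' processing notes name STAR, featureCounts and GRCm38; versions, the annotation, strand setting and treatment of shared reads are not given in the sources used here. Groups came from sample titles, and all columns matched.

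Symbols and positions came from the RefSeq table of GRCm38.p6 (96.5% of IDs matched), promoter windows from RefSeq, and exon overlaps from GENCODE. Low genes were removed by filterByExpr (at least 10 counts, total 15 or more), TMM factors were computed and the groups compared across all genes with edgeR 4.0.16 (R 4.3.3), quasi-likelihood F-test, all 6 libraries, no covariate, Benjamini-Hochberg, threshold 0.05. Standard errors were derived from the fold change and F. Library pairs differed by more than counting noise (chi-square per degree of freedom at least 7.51), and each was used as a replicate. Intervals and floors cover counting error only.

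The 9 genes, the other lists and the naming rule were chosen with earlier results of these data known. The rule names the listed, coreceptor and related genes, up to 3 called downstream and inhibitory genes per direction at or above median expression, the 5 nearest profiles and defining markers. Pik3ap1, Siglecg and Cd72 were named after their values were seen. Alternatives were other scalings, filters, DESeq2 1.42.0, limma-voom (limma 3.58.1), a threshold of 0.01 and leaving out each library. Some genes of the lists are counted in the totals but not reported here by name.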

Additional observations from a re-analysis of the deposited data

How the results depend on the processing

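None of the 9 genes lost its call or turned its direction in the 14 or 15 alternatives that tested it. The highest adjusted p-value was 0.0087, for Blk with limma-voom, and a minimum of 10 counts in every library tested 7 of the 9. The largest move was that of Blk, from 5.54 to 10.24 on the log2 scale over the fits without 1 library. Limma-voom with a variance for each group was added after seeing the data and called all 9. The 13 ratios kept their sign in all alternatives run. No paired analysis was possible because replicates 4 to 6 and 10 to 12 have no number in common.

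The 5 pathway genes called lower became 3 with upper quartile factors, 1 with library size only, 3 with at least 10 counts in every library and 3 at an adjusted p-value under 0.01, and ran from 3 to 6 over the fits without 1 library. The 5 relatives called higher became 3 with at least 10 counts in every library. At 0.01, 2200 of all genes were higher in place of 3324. Library sizes alone as scaling moved the median log2 fold change of all tested genes from 0.07 to 0.38, and 64.3% of called genes were then higher in place of 51.6%, and there Fyn (0.18), Yes1 (0.25), Txk (0.14), Lcp2 (0.085) and Tyrobp (0.056) turned positive. Yes1 also turned with upper quartile factors (0.063), without replicate 6 of the group without Dox (0.43) and without replicate 11 with Dox (0.53), where Txk turned too (0.16), and Cd81 turned without replicate 6 (0.33) or 11 (0.17). Over the fits without 1 library Cd81 ran from -1.50 to 0.33, Yes1 from -0.74 to 0.53 and Txk from -0.70 to 0.16. With limma-voom Cd81 was at -1.87 and Yes1 at -1.89. None of these passed the threshold in any of these fits. The causes of these moves were not tested, apart from the fewer genes that a stricter filter or threshold leaves.

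Counts of 0 to 43 per library without Dox limit the size of the fold changes of the 7 genes other than Lyn and Syk.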

Other observations

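Plasma cell markers moved in both directions. Of 5 markers 2 were lower and 3 higher, beside 22.1% lower and 23.6% higher among all tested genes. Log2 fold changes of the 3 were 1.70 for Prdm1, 1.05 for Mzb1 and 0.66 for Irf4 (edgeR). The call for Prdm1 was lost without replicate 5, 6 or 10, and that for Irf4 with no low-count filter and without replicate 4, 5, 6, 10 or 11. Their summed level was 260 to 294 normalized CPM without Dox and 241 to 252 with Dox, of which Jchain supplied a mean of 175 and 117. Sdc1, the surface proteoglycan CD138, had 301, 150 and 204 counts without Dox and 7, 58 and 2 with Dox (log2 fold change -3.87 ± 0.76 (SE), adjusted p = 0.0023, edgeR), and -5.90 without replicate 11, the highest of its group. Jchain, which joins secreted IgM and IgA, had a log2 fold change of -0.58 ± 0.18 (SE, adjusted p = 0.024, edgeR), a call lost in 6 of the alternatives.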
